A study of Mus musculus with 15 samples.

Results

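The genes described here are 43 markers of brain cells other than microglia, measured in RNA from sorted cortical microglia. They were listed by name and matched to the NCBI Gene IDs of the deposited tables, and all 43 were found among 36528 IDs. They comprise 12 astrocyte markers, 5 oligodendrocyte markers, 6 oligodendrocyte precursor markers, 11 endothelial markers and 9 markers of mural cells (pericytes and vascular smooth muscle). The RNA came from cortical cells sorted for green fluorescent protein made from the Cx3cr1 locus, a fractalkine receptor gene that microglia use at high level. PS2APP mice (n = 9), which model Alzheimer's disease through transgenes for mutant human forms of presenilin 2 and the amyloid precursor protein, were compared with non-Tg mice (n = 6), which lack the transgenes. At 14 months of age there were 4 PS2APP and 2 non-Tg samples, and at 15 months 5 and 4. Every sample carried the Cx3cr1 reporter, while the sources used here do not give its copy number, the promoters of the transgenes or the sex of the mice. No label ties a sample to a single mouse, so the p-values reflect only the scatter among libraries, which may be technical in part.

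Astrocytes take up glutamate and potassium around synapses, wrap vessels with water channel rich endfeet, and raise the intermediate filament Gfap when they react to injury or amyloid. Oligodendrocytes wrap axons in myelin, and their precursors carry the proteoglycan Cspg4 (NG2) and the growth factor receptor Pdgfra. Endothelial cells form the blood-brain barrier and carry receptors for vascular endothelial growth factor. Mural cells surround them under signals from platelet-derived growth factor. A microglial sort is meant to leave all of these cells out, so their transcripts are usually read as a measure of what else the RNA holds. Some of the markers are not exclusive to their cell type: Pecam1 and Flt1 can also be expressed by myeloid cells.

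Total counts per library ranged from 3664742 to 8455237, with a median of 5867848. The 18 microglial marker genes, among them Cx3cr1 and P2ry12, were all above the count filter, and their summed RPKM (reads per length of gene and size of library, as deposited) ranged from 5000 to 8180 in PS2APP and from 5960 to 8370 in non-Tg. The reads of App, over the mouse gene model, ranged from 133 to 376 CPM (counts scaled to a common library size) in PS2APP and from 145 to 216 CPM in non-Tg, so this gene did not separate the labels. Summed immediate early genes lay between 5120 and 20900 CPM in PS2APP 1 and 4 and non-Tg 9 and 13, and between 656 and 894 CPM in the other 11 libraries. Xist lay between 16.7 and 47 CPM in PS2APP 14 and non-Tg 12 and 13, and between 3680 and 7220 CPM in the other 12. The main fit of genotype held no term for this difference between libraries. Libraries are named by their group and the sample number of the labels.

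The 43 markers together held little of the RNA. In PS2APP they took between 0.0417% and 0.0747% of the reads of a library, and in non-Tg between 0.0614% and 0.155%, with the highest share in non-Tg 9 and the next, 0.118%, in non-Tg 13. On the length-scaled RPKM, the median over 15 libraries was highest for Slc1a2, the main astrocytic glutamate transporter, at 5.60. It was followed by Cnp, a myelin enzyme, at 4.18 and Mbp, myelin basic protein, at 3.72, and every other marker had a median of 1.45 or lower. The median gene of the microglial list stood at 206 RPKM, against 0.367 for the astrocyte, 1.05 for the oligodendrocyte, 0.0493 for the precursor, 0.298 for the endothelial and 0.0530 for the mural list. Several defining markers were close to 0 in reads: over all 15 libraries Sox10, the transcription factor of the oligodendrocyte lineage, had 38 reads, Myh11, smooth muscle myosin, 48, and Pdgfra 70. None of the 43 was at 0 in every library.

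**Figure D1:**
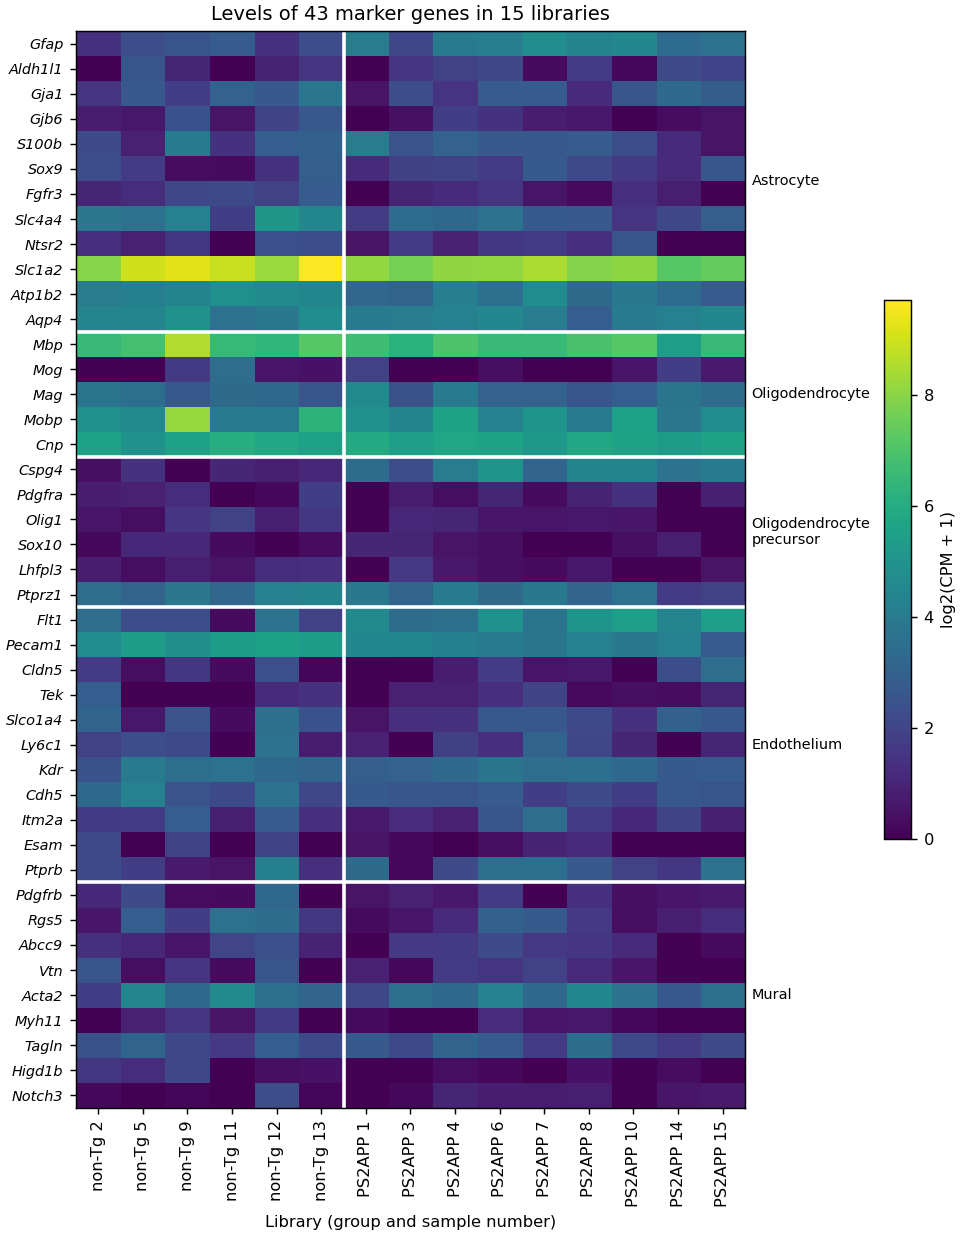
Levels of the 43 markers in the 15 libraries as log2(CPM + 1), with genes in rows by cell type and libraries in columns, non-Tg left and PS2APP right of the white line. Slc1a2, Mbp and Cnp are high in every library, Gfap, Cspg4 and Flt1 are brighter in most PS2APP libraries, and the brightest Mbp and Mobp squares belong to non-Tg 9.

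Summed over each list, the levels of the groups overlapped for all 5 cell types. The astrocyte sum ranged from 6.70 to 14.4 RPKM with a median of 10.7 in PS2APP, and from 9.24 to 25.3 with a median of 14.6 in non-Tg. Slc1a2 alone made up between 47.2% and 69.4% of that sum in non-Tg and between 43.5% and 52.9% in PS2APP, and without it the sums were 4.33 to 8.39 RPKM in non-Tg and 3.72 to 7.03 in PS2APP. The oligodendrocyte sum ranged from 7.05 to 12.9 RPKM with a median of 9.83 in PS2APP, and from 8.89 to 31.7 with a median of 10.9 in non-Tg. The top value came from non-Tg 9, and the next in that group was 13.4. The precursor sum was low in both groups, with a median of 0.872 RPKM in PS2APP and 0.767 in non-Tg. The endothelial sum had medians of 4.19 RPKM in PS2APP (2.68 to 5.60) and 5.12 in non-Tg (3.41 to 9.32), and the mural sum 1.88 (1.05 to 4.43) and 3.41 (1.72 to 5.03). The sums are in units of RNA, and in such bulk samples fewer cells of a type and less RNA per cell cannot be told apart. The sum over 20 neuron genes ranged from 6.12 to 25.6 RPKM in PS2APP and from 22.1 to 40.9 in non-Tg, with an overlap through PS2APP 4.

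**Figure D2:**
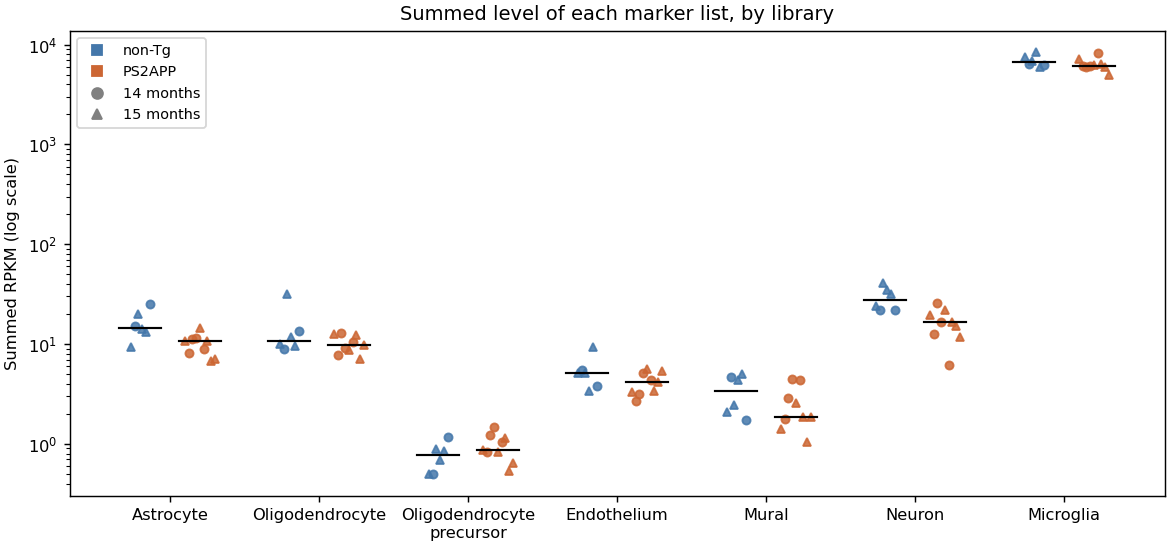
Summed deposited RPKM of each marker list, with the neuron and microglial lists beside them, on a log axis, with a point for each library (circles 14 months, triangles 15 months) and a line at each group's median. The 5 marker lists overlap between the groups, and the highest oligodendrocyte point, 31.7 RPKM, is non-Tg 9.

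Of the 43 markers, 30 passed the count filter (10 reads at the median library size, about 1.70 CPM, in at least 6 libraries) and 13 did not, with 38 to 159 reads over all 15 libraries. The markers that were not tested were Gjb6 and Fgfr3 of the astrocyte, Mog of the oligodendrocyte, Pdgfra, Olig1, Sox10 and Lhfpl3 of the precursor, Tek and Esam of the endothelial, and Pdgfrb, Myh11, Higd1b and Notch3 of the mural list. Cspg4 passed only through PS2APP, where 9 libraries reached the level of the filter and no non-Tg library did, and Aldh1l1 reached it in 6 PS2APP libraries and 1 non-Tg library. Genotype was tested in edgeR by a quasi-likelihood fit that also held age, and p-values were adjusted by the Benjamini-Hochberg method over the 13994 genes that passed the filter. Across those genes 1.18% were called at an adjusted p under 0.05, 0.958% as higher and 0.222% as lower in PS2APP. Among the tested markers 5 were called, which is 16.7%: Gfap, Cspg4 and Flt1 as higher, and Slc1a2 and Pecam1 as lower. At an unadjusted p under 0.05 there were 9, of which 3 were higher and 6 lower, against 11.7% of all genes. The markers were chosen with earlier results of these data known, and Gfap, Cspg4 and Flt1 were named then as outliers. These shares therefore describe the list and do not test it against all genes. Of the 30 tested markers 9 had a positive and 21 a negative log2 fold change, with a median of -0.30, while 47.3% of all tested genes were positive and their median was -0.02. The called genes belong to 3 of the lists, and both the astrocyte and the endothelial list held a call in each direction.

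**Figure D3:**
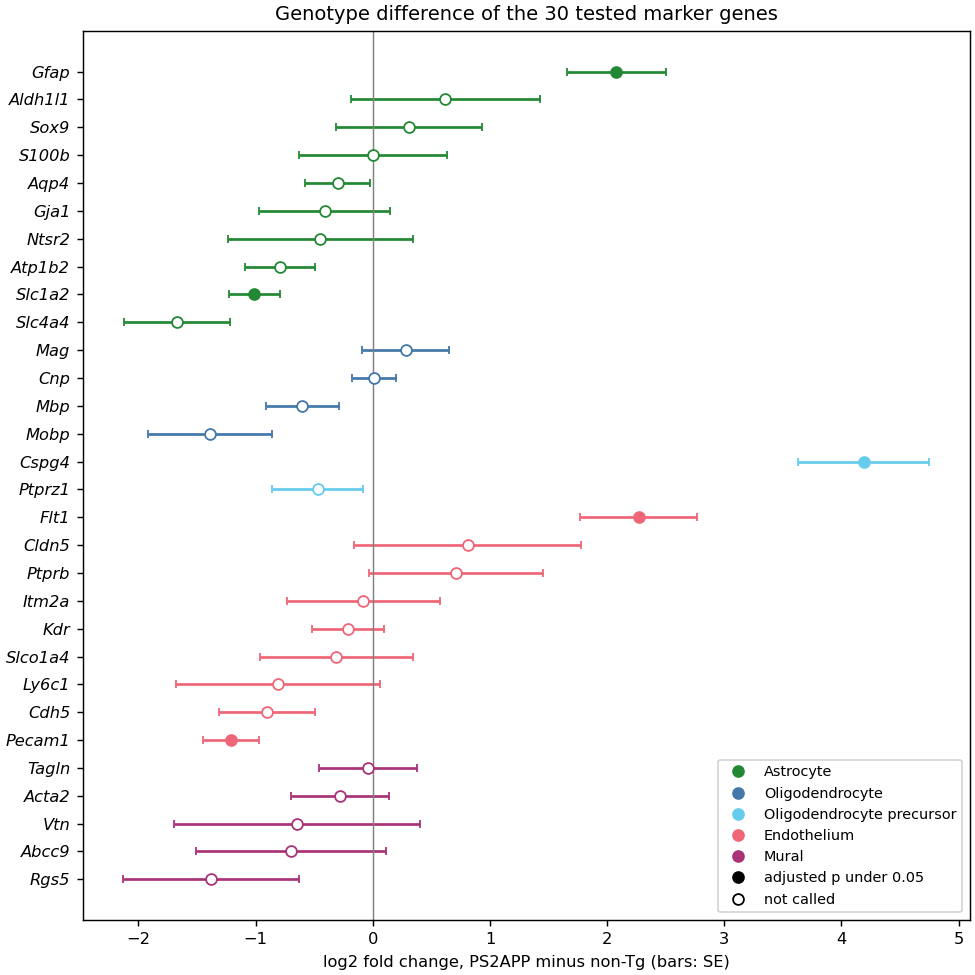
Log2 fold changes (PS2APP minus non-Tg) of the 30 tested markers with their standard errors, grouped by cell type. Cspg4, Flt1 and Gfap lie farthest to the right at 4.19, 2.27 and 2.08, and most other points lie at or left of 0.

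The astrocyte list held a call in each direction. Gfap, the intermediate filament of astrocytes, ranged from 1.64 to 6.01 CPM with a median of 3.92 in non-Tg, and from 3.23 to 26.1 CPM with a median of 16.0 in PS2APP. PS2APP 3 was the only PS2APP library inside the non-Tg range, and the next lowest, PS2APP 14, stood at 9.46 CPM. The means were 15.4 ± 6.79 (SD, n = 9) and 3.66 ± 1.72 CPM (n = 6), a 4.23-fold increase with a log2 fold change of 2.08 ± 0.42 (SE; edgeR, Benjamini-Hochberg adjusted p = 0.0120). The call was kept in all 15 fits that left out a single library and in 8 of 15 other alternatives, and limma-voom gave 2.39 with an adjusted p of 0.0816. Slc1a2 ranged from 241 to 829 CPM with a median of 486 in non-Tg, and from 143 to 356 CPM with a median of 266 in PS2APP. All 9 PS2APP libraries were below the non-Tg median, yet the groups overlapped through non-Tg 2 and 12 at 241 and 302 CPM. The mean fell from 492 ± 213 (SD, n = 6) to 244 ± 65.1 CPM (n = 9), with a log2 fold change of -1.01 ± 0.22 (edgeR, Benjamini-Hochberg adjusted p = 0.0202). Leaving out non-Tg 9 or non-Tg 13, the libraries with the most Slc1a2 and with high immediate early genes, gave log2 fold changes of -0.90 and -0.83 and adjusted p-values of 0.0629 and 0.0838.

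The other 8 tested astrocyte markers were not called. Slc4a4, the sodium bicarbonate cotransporter, ranged from 2.49 to 34.4 CPM with a median of 15.8 in non-Tg and from 1.80 to 11.6 with a median of 5.67 in PS2APP. All 9 PS2APP libraries lay below the non-Tg median, and non-Tg 11, at 2.49 CPM, was far below the other non-Tg libraries. Its log2 fold change was -1.67 ± 0.45 (edgeR, Benjamini-Hochberg adjusted p = 0.0828), and without non-Tg 11 it was called. Atp1b2, a subunit of the sodium pump, had means of 20.9 ± 4.46 CPM (SD, n = 6) in non-Tg and 11.9 ± 6.0 (n = 9) in PS2APP and a log2 difference of -0.79 ± 0.30 (edgeR adjusted p = 0.264). Aqp4, the water channel of endfeet, had a log2 fold change of -0.30 ± 0.28, with means of 20.3 ± 6.89 and 16.5 ± 4.58 CPM. S100b, a calcium-binding protein, stood at 5.76 ± 5.10 CPM (SD, n = 6) in non-Tg and 5.65 ± 4.59 (n = 9) in PS2APP, and its highest libraries were PS2APP 1 at 16.4 and non-Tg 9 at 14.8 CPM. Gja1, the gap junction protein connexin 43, Ntsr2, a neurotensin receptor, Sox9, a glial transcription factor, and Aldh1l1, a folate enzyme, had log2 fold changes between -0.45 and 0.62. Among the untested pair, Gjb6, another connexin, had 101 reads in 6 non-Tg and 38 reads in 9 PS2APP libraries, and Fgfr3, a growth factor receptor, 118 and 41.

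The oligodendrocyte list gave no call. Mbp ranged from 82.1 to 376 CPM with a median of 102 in non-Tg, and from 41.8 to 144 CPM with a median of 93.1 in PS2APP. Non-Tg 9 stood far above the others in its group, the next being non-Tg 13 at 144 CPM, and PS2APP 14 was lowest. Its log2 fold change was -0.60 ± 0.31 (edgeR, Benjamini-Hochberg adjusted p = 0.460), and -0.08 without non-Tg 9. Mobp, a protein of the compact myelin sheath, stood at 295 CPM in non-Tg 9 and 76.6 in non-Tg 13, between 14.7 and 28.5 in the other 4 non-Tg libraries, and between 13.4 and 47.5 in PS2APP. The groups overlapped, and the log2 difference was -1.39 ± 0.53 (edgeR adjusted p = 0.262). It was -0.14 without non-Tg 9, and 0.26 without the 4 libraries rich in immediate early genes. Cnp was the steadiest of the myelin genes, at 47.7 ± 11.5 CPM (SD, n = 6) in non-Tg and 47.4 ± 7.75 (n = 9) in PS2APP, a log2 fold change of 0.01 ± 0.19. Mag, an adhesion protein of the innermost myelin layer, had a log2 fold change of 0.28 ± 0.37 and its highest value, 23.2 CPM, in PS2APP 1. Mog, a protein of the outer myelin surface, was not tested: 48 of its 102 reads came from non-Tg 11, and 6 libraries had none.

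Among the precursor markers Cspg4 rose, Ptprz1 was not called, and the other 4 had too few reads to pass the filter. Cspg4, which encodes the NG2 proteoglycan, ranged from 0 to 1.66 CPM with a median of 0.905 in non-Tg, and from 3.91 to 31.3 CPM with a median of 14.5 in PS2APP. Every PS2APP library was above every non-Tg library, a separation seen upward in 0.572% of all tested genes, with PS2APP 6 highest and PS2APP 3 lowest. Cspg4 passed the count filter only through PS2APP, the group where it was high, and it was named as an outlier beforehand. Its separation and the fit that follows are therefore descriptions. In reads the gene had 744 over 9 PS2APP libraries and 27 over 6 non-Tg libraries, and only non-Tg 9 had none. The means were 14.9 ± 8.0 (SD, n = 9) and 0.831 ± 0.601 CPM (n = 6), an 18.3-fold increase with a log2 fold change of 4.19 ± 0.56 (edgeR, Benjamini-Hochberg adjusted p = 0.000121). The call was kept in 13 of 15 other alternatives, and was lost at 14 months alone and with limma-voom, which gave 4.27 with an adjusted p of 0.0937. Pdgfra, the receptor that together with Cspg4 defines precursors, stood at 0.922 ± 0.921 CPM (SD, n = 6) in non-Tg and 0.620 ± 0.541 (n = 9) in PS2APP, with 38 and 32 reads. The lineage transcription factors Olig1 and Sox10 had 52 and 17 reads in non-Tg and 25 and 21 in PS2APP, and Lhfpl3, a membrane protein enriched in precursors, had 33 and 24. Ptprz1, a receptor phosphatase that astrocytes also express, was the other tested member and differed by -0.47 ± 0.39 on the log2 scale (edgeR adjusted p = 0.701), with means of 12.7 ± 5.05 (SD, n = 6) and 9.26 ± 4.66 CPM (n = 9). Cspg4 is also a marker of pericytes. The mural sum given above had the lower median in PS2APP. The median Spearman rho of Cspg4 with the tested mural genes was 0.03 over all 15 libraries and 0.40 within PS2APP. With Rgs5 alone, its Pearson r was -0.24 over all libraries, 0.37 within PS2APP and 0.49 within non-Tg. What part other cell types had in the Cspg4 difference was not tested.

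The endothelial list also split. Flt1, the VEGF receptor 1, ranged from 0.207 to 11.8 CPM with a median of 3.88 in non-Tg, and from 9.87 to 41.2 CPM with a median of 23.6 in PS2APP. All 9 PS2APP libraries exceeded the non-Tg median, and the overlap came from non-Tg 2 and 12 at 9.98 and 11.8 CPM against PS2APP 3 and 4 at 9.87 and 11.1. The means were 24.4 ± 12.1 (SD, n = 9) and 5.42 ± 4.47 CPM (n = 6), a 4.82-fold increase with a log2 fold change of 2.27 ± 0.50 (edgeR, Benjamini-Hochberg adjusted p = 0.0220). That call was lost, with adjusted p-values from 0.0501 to 0.0675 and log2 fold changes from 2.13 to 2.26, without non-Tg 5, 9 or 13 or PS2APP 10 or 15. Pecam1, the adhesion molecule CD31, moved the other way. It ranged from 25.2 to 44.8 CPM with a median of 38.9 in non-Tg, and from 6.14 to 21.7 CPM with a median of 17.4 in PS2APP. The groups did not overlap, a separation seen downward in 0.0643% of all tested genes, and PS2APP 15 was lowest. The mean fell from 36.0 ± 7.76 (SD, n = 6) to 15.9 ± 4.76 CPM (n = 9), with a log2 fold change of -1.21 ± 0.24 (edgeR, Benjamini-Hochberg adjusted p = 0.0107).

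The other 7 tested endothelial genes were not called. Kdr, the VEGF receptor 2, had a log2 fold change of -0.21 ± 0.31, with means of 9.60 ± 3.70 CPM (SD, n = 6) in non-Tg and 8.55 ± 2.33 (n = 9) in PS2APP. Cdh5, the cadherin of endothelial junctions, ranged from 3.30 to 17.7 CPM in non-Tg and from 2.45 to 5.80 in PS2APP, where all 9 libraries lay below the non-Tg median of 6.59, with a log2 fold change of -0.90 ± 0.41 (edgeR, Benjamini-Hochberg adjusted p = 0.399). Cldn5, the tight junction claudin of the barrier, had 149 reads in all, stood at 10 CPM in PS2APP 15 and was at 0 in 3 PS2APP libraries. Its log2 fold change was 0.81 ± 0.97. Ly6c1, a surface protein of brain endothelium, Slco1a4, an organic anion transporter, Itm2a, a membrane protein, and Ptprb, the endothelial phosphatase, had log2 fold changes of -0.81, -0.31, -0.08 and 0.71, each smaller than its standard error. Tek, the angiopoietin receptor, was not tested, and 39 of its 101 reads came from non-Tg 2. Esam, another junction molecule, had 65 reads in non-Tg and 16 in PS2APP, and was not tested.

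All 5 tested mural markers had negative log2 fold changes and none was called. Rgs5, a G protein regulator of pericytes, ranged from 0.491 to 11.2 CPM with a median of 4.38 in non-Tg, and from 0.213 to 7.12 CPM with a median of 1.30 in PS2APP. The groups overlapped over most of their range, and the log2 fold change was -1.38 ± 0.75 (edgeR, Benjamini-Hochberg adjusted p = 0.496). The contractile genes Acta2, smooth muscle actin, and Tagln, an actin-binding protein, had log2 fold changes of -0.28 ± 0.42 and -0.04 ± 0.42, and Acta2 was the most abundant mural gene at a median of 0.969 RPKM. Abcc9, a potassium channel subunit, and Vtn, vitronectin, had log2 fold changes of -0.70 ± 0.81 and -0.65 ± 1.05. The receptors Pdgfrb and Notch3 were not tested, and non-Tg 12 held 55 of the 118 Pdgfrb reads and 25 of the 52 Notch3 reads.

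**Figure D4:**
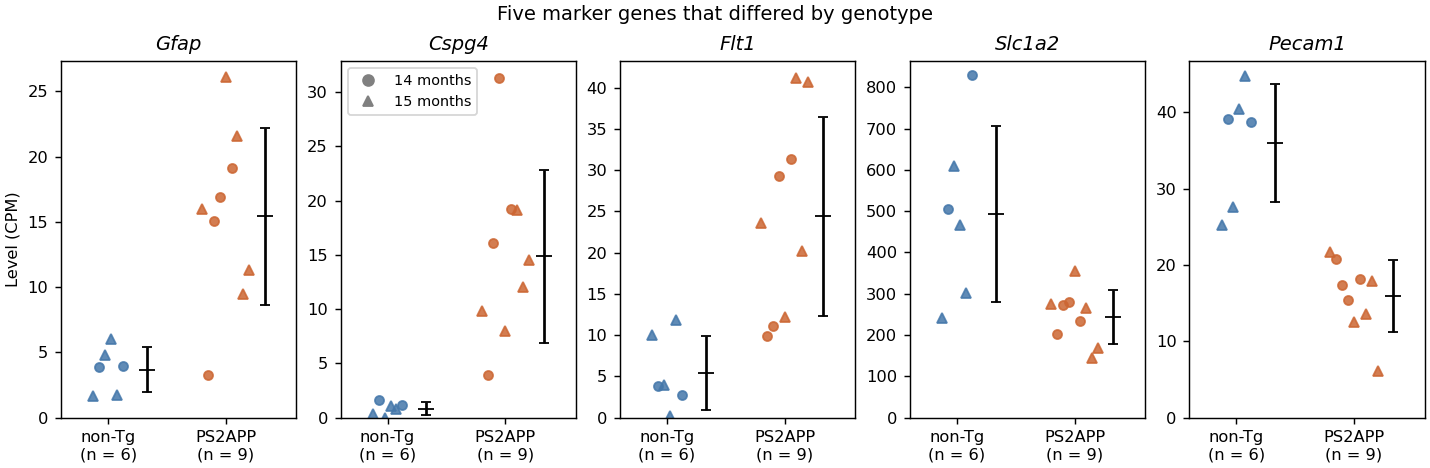
CPM of the 5 called markers in each library, with the group mean and standard deviation. Cspg4 and Pecam1 separate the groups completely, while Gfap overlaps through PS2APP 3 at 3.23 CPM and Slc1a2 and Flt1 overlap through several libraries.

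Gfap, Cspg4 and Flt1 were each called higher in PS2APP although they mark 3 cell types, and whether they vary together was not tested. The sequences just before their start sites are shown, so that the letters of their promoters can be compared. They are the 250 bases upstream of the starts that the promoter table takes from RefSeq (GRCm38.p6), which holds a promoter for 29 of the 43 markers, at chr11:102897201-102897450 on the minus strand for Gfap, chr9:56864854-56865103 on the plus strand for Cspg4 and chr5:147726012-147726261 on the minus strand for Flt1. Each is written 5′ to 3′ toward the gene, and capitals mark matches to a motif searched on both strands.
Gfap: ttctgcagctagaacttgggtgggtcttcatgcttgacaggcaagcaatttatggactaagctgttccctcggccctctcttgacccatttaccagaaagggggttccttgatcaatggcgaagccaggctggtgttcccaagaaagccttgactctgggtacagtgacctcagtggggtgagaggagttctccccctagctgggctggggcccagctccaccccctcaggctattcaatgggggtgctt
Cspg4: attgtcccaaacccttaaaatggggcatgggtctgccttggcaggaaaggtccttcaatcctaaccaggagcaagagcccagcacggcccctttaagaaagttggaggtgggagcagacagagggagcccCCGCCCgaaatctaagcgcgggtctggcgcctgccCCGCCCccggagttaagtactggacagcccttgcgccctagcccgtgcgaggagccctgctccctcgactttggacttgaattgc
Flt1: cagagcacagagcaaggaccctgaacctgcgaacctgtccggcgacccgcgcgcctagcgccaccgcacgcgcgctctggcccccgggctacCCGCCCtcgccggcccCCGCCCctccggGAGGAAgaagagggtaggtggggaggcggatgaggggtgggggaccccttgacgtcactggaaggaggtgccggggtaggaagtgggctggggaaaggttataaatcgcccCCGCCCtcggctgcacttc
The genes and motifs were chosen after results were known, and a match describes letters only. The GC box GGGCGG matched 2 times for Cspg4 and 3 times for Flt1, in each case as its reverse complement, and it occurs in 32.7% of 32851 mouse promoter windows of this length. GAGGAA, a core of sites read by ETS factors such as the one encoded by Spi1, matched 1 time, for Flt1, and occurs in 23.3% of windows. TGANTCA of AP-1, TTCNNNGAA of STAT factors and the E-box CACGTG matched in none of the 3 windows and occur in 6.75%, 7.02% and 6.02% of all windows. The Flt1 window lies inside the outermost span of the gene, so it precedes a start downstream of the outermost annotated one. No searched motif was shared by all 3, and their GC contents were 55.6%, 60.4% and 70.4% against a median of 52.4%. In the GRCm38 annotation the genes span chr11:102887336-102897200 (Gfap, minus strand), chr9:56865104-56899870 (Cspg4, plus strand) and chr5:147561604-147726438 (Flt1, minus strand). Slc1a2 lies at chr2:102658239-102790784 on the plus strand and Pecam1 at chr11:106654213-106715281 on the minus strand. Gfap overlaps a long noncoding RNA gene and Slc1a2 an antisense gene on the opposite strand, and since the sources used here do not give the strandedness, reads of these partners cannot be told apart.

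Around the called genes lies the pathway of VEGF and PDGF ligands and their receptors, a list of 19 genes that includes Flt1, Kdr, Tek, Pdgfra, Pdgfrb and Cspg4. Of its 11 tested genes 3 were called higher, against 0.958% of all tested genes, and 0 lower, with a median log2 fold change of 0.36. The list was drawn around Flt1 and Cspg4, so those calls add nothing to the count. Beside Flt1 and Cspg4 the call was Nrp1, the VEGF coreceptor neuropilin 1, which rose from 260 ± 69.1 (SD, n = 6) to 446 ± 116 CPM (n = 9), a log2 fold change of 0.74 ± 0.17 (edgeR, Benjamini-Hochberg adjusted p = 0.0256). Vegfa, the main ligand, differed by 1.95 ± 0.63 in log2 and was not called (edgeR adjusted p = 0.174), at 1.43 ± 0.771 CPM (SD, n = 6) and 5.44 ± 4.43 (n = 9). Pdgfb, the ligand that recruits pericytes, was the most abundant of the PDGF ligands by RPKM and differed by -0.30 ± 0.15 on the log2 scale (edgeR adjusted p = 0.457).

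Further markers of the same cells are read against 1.18% of all tested genes called and 11.7% at an unadjusted p under 0.05. Of 15 tested further astrocyte genes 1 was lower, Glul, the glutamine synthetase gene that microglia also express. It fell from 949 ± 199 (SD, n = 6) to 591 ± 121 CPM (n = 9), with a log2 fold change of -0.69 ± 0.15 (edgeR, Benjamini-Hochberg adjusted p = 0.0225), and 14 of the 15 log2 fold changes were negative. Sparcl1, a secreted matricellular protein, differed by -1.11 ± 0.34 on the log2 scale (edgeR adjusted p = 0.137). Among genes known from reactive astrocytes only 5 of 18 were tested. All 5 had positive log2 fold changes, with a median of 0.42, and 2 had an unadjusted p under 0.05. The 1 called higher was Cd44, a hyaluronan receptor that leukocytes carry as well. It rose from 5.32 ± 3.52 (SD, n = 6) to 23.1 ± 10 CPM (n = 9; edgeR, Benjamini-Hochberg adjusted p = 0.00253). Serpina3n, a protease inhibitor prominent in reactive astrocytes, had 64 reads in PS2APP and 9 in non-Tg, and Lcn2, lipocalin 2, had 3 and 88, both below the filter. None of 6 further oligodendrocyte, 10 further endothelial and 4 further mural or fibroblast genes was called by edgeR, of which 1, 3 and 1 had an unadjusted p under 0.05. The summed mural or fibroblast list was uneven, at 17.5 RPKM in non-Tg 5, 17.3 in PS2APP 6 and 18.6 in PS2APP 8. The next highest library was PS2APP 7 at 3.50 RPKM. The collagen genes Col1a1, Col1a2 and Col3a1 of that list did not pass the count filter. Ly6a, an endothelial surface antigen, differed by 1.52 ± 0.47 on the log2 scale (edgeR adjusted p = 0.151).

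Among markers of other cells, neuron and choroid plexus genes held calls for genotype. Of all tested genes 1.18% were called, 0.222% as lower, and 11.7% had an unadjusted p under 0.05. Of 16 tested neuron genes 2 were lower, Slc17a7, the vesicular glutamate transporter, at a log2 fold change of -1.94 ± 0.47 and Gad2, a GABA-synthesizing enzyme, at -2.26 ± 0.53 (edgeR, Benjamini-Hochberg adjusted p = 0.0388 and 0.0315), and the list's median was -0.94. At an unadjusted p under 0.05 there were 8 neuron genes, of which 1 was higher and 7 lower. Thy1, a surface glycoprotein of neurons, went the other way at 1.52 ± 0.46 and was not called (edgeR adjusted p = 0.133). Ttr and Enpp2, the leading choroid plexus genes, were lower as well, at log2 fold changes of -3.40 ± 0.82 and -2.51 ± 0.58 (edgeR, Benjamini-Hochberg adjusted p = 0.0405 and 0.0312). The choroid plexus sum was uneven in non-Tg, at 71.8 RPKM in non-Tg 9 and 17.1 in non-Tg 13 but 1.38 in non-Tg 2 and 0.372 in non-Tg 5, against 0.426 to 5.98 in PS2APP. The sum of 14 blood and lymphoid genes ranged from 2.40 to 55.2 RPKM with a median of 13.5 in non-Tg and from 2.53 to 8.58 with a median of 3.34 in PS2APP, and was highest in non-Tg 13, 9 and 11. Most of these genes were below the count filter, among them Hbb-bs, a globin, with 401 reads in non-Tg and 27 in PS2APP, and S100a8, a neutrophil protein, with 356 and 45. The part of these cells in the marker differences was not tested. Of 8 tested border macrophage, 2 blood and 18 microglial genes none was called by edgeR, with 0, 0 and 5 at an unadjusted p under 0.05. All 17 tested immediate early genes had negative log2 fold changes, none called and 8 at an unadjusted p under 0.05. The medians of the summed list did not go that way, at 816 CPM in PS2APP and 766 CPM in non-Tg. Its highest sums were 11300 and 20900 CPM, in non-Tg 9 and 13. The mean log2 CPM of the tested neuron genes ranged from 1.41 to 3.28 in PS2APP libraries and from 2.82 to 3.93 in non-Tg libraries. A neuron covariate is thus partly confounded with genotype, and their shares cannot be fully told apart. With the neuron score of each library as a covariate, Cspg4 alone of the 5 markers kept its call. Cspg4 passed the count filter only through PS2APP, so its calls here are descriptions. The log2 fold changes were then 2.03 for Gfap, 1.64 for Flt1, -0.92 for Slc1a2 and -1.12 for Pecam1, with adjusted p-values from 0.314 to 0.885, and 28 genes were called in all against 165 without the covariate. After leaving out PS2APP 1 and 4 and non-Tg 9 and 13, which were high in immediate early genes, Cspg4 and Pecam1 were called and Gfap had a log2 fold change of 2.25 (adjusted p = 0.0623).

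Age did not separate the markers. Between 15 and 14 months edgeR called 0 of the 30 tested markers, against 0% of all tested genes, and 0 had an unadjusted p under 0.05, against 7.95% of all genes. The smallest Benjamini-Hochberg adjusted p was 0.634, that of Cldn5, whose log2 fold change was 2.11 ± 1.02. The genotype difference was not called as different between the ages for any tested marker by edgeR, with 0% of all genes called and a smallest adjusted p of 0.661. Vtn was the only marker with an unadjusted interaction p under 0.05, against 7.42% of all genes. The fitted log2 fold changes for genotype were 1.82 at 14 months alone and 2.25 at 15 months alone for Gfap, and 2.67 and 2.07 for Flt1. They were -1.40 and -0.75 for Slc1a2 and -1.08 and -1.28 for Pecam1, and none of these 4 was called at a single age. For Cspg4 they were 3.69 and 4.57, with edgeR, Benjamini-Hochberg adjusted p-values of 0.0808 and 0.0109.

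The median pairwise Spearman rho of log2 CPM across the 15 libraries was 0.14 over 45 pairs of astrocyte genes, 0.23 over 36 endothelial pairs, 0.31 over 10 mural pairs and -0.02 over 6 oligodendrocyte pairs. The points share library and depth, and the genes are sparse, so these are descriptions. For comparison, the median was 0.58 among immediate early genes, 0.28 among neuron genes and 0.25 among microglial genes, and 0.15 between endothelial and mural genes. Between astrocyte and oligodendrocyte genes it was -0.04. With all other tested genes, the astrocyte, endothelial, mural and oligodendrocyte lists each had a median of about 0.0. Among the called genes, the median rho of Gfap with the other astrocyte genes was -0.09 and that of Slc1a2 0.24, while with the other endothelial genes Flt1 had 0.00 and Pecam1 -0.03, and the uncalled Kdr -0.10. Within PS2APP alone the value of Gfap was 0.28. Cldn5, Ptprb and Ly6c1 had medians of 0.38, 0.37 and 0.36 with the other endothelial genes. Within PS2APP alone the list medians were 0.08 for astrocyte, 0.07 for endothelial, 0.46 for mural and 0.26 for oligodendrocyte genes. Within the 6 non-Tg libraries they were 0.14, 0.57, 0.26 and -0.43, so the endothelial and oligodendrocyte values differed in size or sign between the groups, a difference that was not tested.

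Of 13 chosen pairs of markers 11 could be tested, and 1 passed: Mbp and Mobp. Over 15 libraries their log2 CPM had a Pearson r of 0.88 (permutation p = 2e-05, Benjamini-Hochberg adjusted p = 0.00022) and a Spearman rho of 0.80 (permutation p = 0.00052, adjusted p = 0.00572). Without non-Tg 9 and PS2APP 14, the libraries farthest from the median of Mbp, r was 0.73 over 13 libraries (permutation, adjusted p = 0.0481). It was 0.70 within PS2APP, 0.97 within non-Tg, 0.68 at 14 months and 0.94 at 15 months. The pairs Gja1 with Slc1a2, Gfap with Gja1, Cldn5 with Ly6c1 and Cldn5 with Flt1 had r of 0.20, -0.17, 0.24 and 0.29 and did not pass. Slc1a2 with Mbp, a pair across cell types, had an r of 0.64 (permutation p = 0.00979, adjusted p = 0.0538) and 0.46 without non-Tg 9 and 13.

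**Figure D5:**
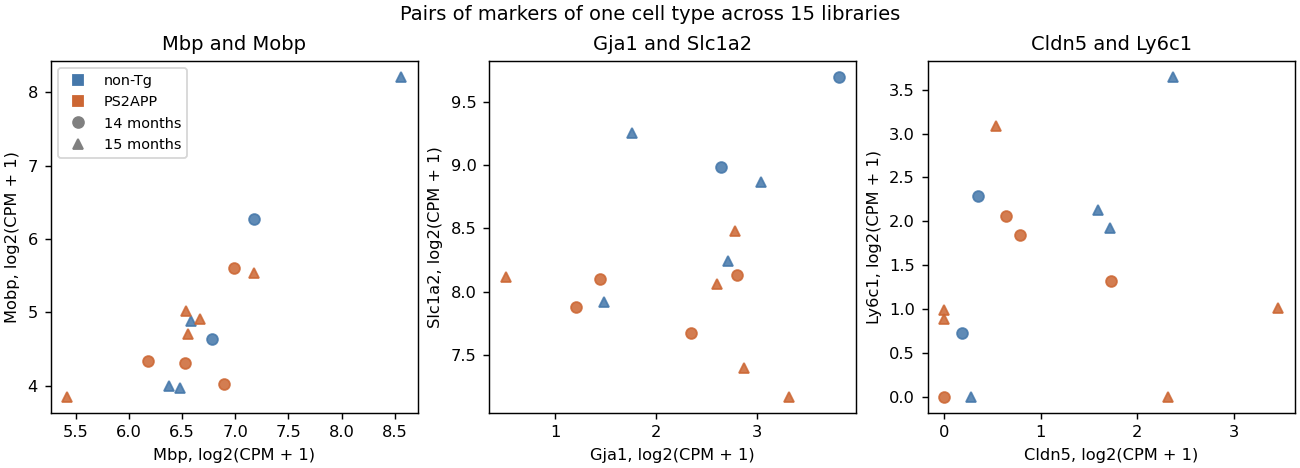
Log2(CPM + 1) of 3 pairs of markers, with a point for each of 15 libraries, coloured by group (circles 14 months, triangles 15 months). Mbp and Mobp rise together with non-Tg 9 at the top right, while the other pairs show no clear line.

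The library with the highest level of a marker differed between cell types. The counts here cover all 43 markers, of which 13 were not tested, while the shares cover tested genes only. Among the untested, Pdgfrb, Myh11 and Notch3 were highest in non-Tg 12, and Gjb6, Fgfr3 and Pdgfra in non-Tg 13. Non-Tg 12 was the highest library for 9 of the 43 markers, 4 endothelial, 4 mural and 1 astrocytic, and it was highest for 4.40% of all tested genes. Non-Tg 13 was highest for 7, of which 5 were astrocytic and 2 of the precursor list, against 7.35% of all genes. Non-Tg 9 was highest for 5, among them Mbp and Mobp, against 9.63%, and non-Tg 11 for 6, against 16.5%, which are near the shares over all genes. Without non-Tg 9 and 12, an alternative chosen after seeing the data, Cspg4 and Pecam1 were called. Gfap, Flt1 and Slc1a2 then had log2 fold changes of 1.97, 2.50 and -1.0 with adjusted p-values of 0.0616, 0.0505 and 0.0598.

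The 5 genes nearest to each of the 3 rising markers across the 15 libraries included no other of the 43 markers. Untested markers, and those whose log2 CPM averaged under 2, could not appear in this ranking. By Spearman rho over genes whose log2 CPM averaged 2 or more, Gfap was nearest to Ctsl, a lysosomal protease, Prelid1, Lox, a collagen crosslinking enzyme, Crtap and Olfr112, with rho from 0.82 to 0.84. Cspg4 was nearest to Anxa2, an annexin, Olfr112, Psat1, an enzyme of serine synthesis, Cox6a2 and Fgr, a myeloid tyrosine kinase, with rho from 0.89 to 0.90. Flt1 was nearest to Fahd1, Renbp, Ramp1, Capg, an actin-capping protein, and Cpeb1, with rho from 0.90 to 0.92. Over all 15 libraries these values contain the genotype difference itself. Within the 9 PS2APP libraries alone the nearest genes were others, led by Cisd1 for Gfap, Ndufs8 for Cspg4 and Arhgef7 for Flt1, at rho of 0.93, 0.97 and 0.93, and none of the genes named above was among the 5 nearest.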

How the data were processed

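RNA of Cx3cr1-GFP-positive cortical cells was purified with a column kit, per the labels' protocols. GRCm38 was the genome and GSNAP the aligner, per the submitters' processing notes. For annotation, library preparation and strand, nothing is given in the sources used here. Each sample has a table of 36528 NCBI Gene IDs. Per the file headers it holds the count of uniquely aligned reads and nRPKM, the RPKM adjusted by a size factor of the authors. Symbols came from a RefSeq table (GRCm38.p6), which matched 31049 IDs, and positions from a GENCODE annotation.

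The test of the counts used edgeR 4.0.16 (R 4.3.3), with filterByExpr, TMM, a quasi-likelihood fit of genotype and age over all 15 samples, and Benjamini-Hochberg adjustment over 13994 genes. Levels are CPM on TMM-scaled library sizes, and deposited RPKM served for levels between genes. The standard error is the log2 fold change over the square root of F. Covariation used log2 CPM with a prior count of 2, and pairs 100000 resamples with a two-sided permutation test. Tested on simulated genotype counts of 13718 genes, the step recovered 32% of 2-fold and 82% of 4-fold changes, and 7.32% of its calls were false. Over 51 pairs of samples of a group the chi-square per degree of freedom was 10.6 to 75.6, more scatter than counting noise alone. Each sample was counted once, though these values cannot show whether samples come from separate mice.

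The members, the 17 lists (243 of 244 symbols were found) and the alternatives were chosen with earlier results of these data known. Named genes are Gfap, Cspg4, Flt1, the called markers, the 4 with the highest RPKM in each list, those standing apart in a group, up to 3 of each other list and the 5 nearest of each rising marker, and others by value. Genes outside this rule, such as Serpina3n, Lcn2, Vegfa, Pdgfb, Thy1, Hbb-bs and S100a8, were chosen after their values were seen. The fits were repeated with DESeq2 1.42.0, with limma 3.58.1 (voom with quality weights, and trend on RPKM), with a robust fit, under other scalings and count filters, with a neuron covariate, with age dropped, at single ages and with samples left out.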

Additional observations from a re-analysis of the deposited data

Results flagged for a closer look

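In 70 groups of values (the tested markers and the list sums, by genotype), 5 had a library that stood apart from the rest of its group by a gap test that chance meets in about 5% of groups. Gfap in PS2APP 3 stood at 3.23 CPM, below the next lowest PS2APP library at 9.46. Aqp4 in PS2APP 8 stood at 6.54 CPM, below the next at 15.0. Pecam1 in PS2APP 15 stood at 6.14 CPM, below the next at 12.5. Mbp in non-Tg 9 stood at 376 CPM, above the next at 144, and the summed oligodendrocyte RPKM of the same library was 31.7, above the next at 13.4.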

How the results depend on the processing

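The count of 5 called markers was also 5 without the age term, with RLE or no scaling, with a filter of 10 counts in 6 samples and with the robust fit. It was 7 without a count filter, 6 with DESeq2 and 4 with limma-trend on log2(RPKM + 1). It was 2 with limma-voom (Pecam1 and Slc1a2), 1 with the neuron covariate, 0 at 14 months alone, 1 at 15 months alone, 2 after dropping the 4 libraries rich in immediate early genes, 1 after dropping the 3 poor in Xist, and 2 without non-Tg 9 and 12. The smaller sets hold fewer samples, and for limma-voom and the covariate the cause was not tested. Leaving out each library in turn gave 3 to 6, with 3 without non-Tg 9 or non-Tg 13. Cspg4, Gfap and Pecam1 were called in all 15 of these fits. In every setting a call of Cspg4 is a description, since the gene was named beforehand and passed the main filter only through PS2APP. The direction of the 5 called markers was the same under every alternative. The median log2 fold change of the precursor list moved from 1.86 to -0.48 without a count filter, where 6 genes entered in place of 2, and to 0.19 with limma-trend. That of the mural list was 0.23 at 14 months alone, that of the oligodendrocyte list -0.78 at 15 months alone, and that of the astrocyte list 0.14 after dropping the 4 libraries rich in immediate early genes. Counts for age, the interaction and the pairs did not move under the alternatives run. The 13 markers below the count filter had 38 to 159 reads over 15 libraries, and without a filter none of them was called. No paired analysis was possible because the groups share no replicate number.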
